A study of Caenorhabditis elegans with 2 samples.

Results

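The regions described here are 364 peaks of LIR-3 ChIP-seq signal that lay between the genes of the Caenorhabditis elegans autosomes and away from annotated gene starts. They were chosen by the measured signal itself and by position: peaks of the pooled list on the 5 autosomes with a deposited signal value of at least 45, whose summit was neither in the 500 bp before nor in the 200 bp after any annotated gene start (piRNA genes ignored) and outside the span of every protein-coding gene. They were 364 of 20360 pooled peaks (1.79%), and 14.1% of the 2582 autosomal peaks of at least that signal value. Across the whole pooled list 15.9% of peaks reached a value of 45. The worms were whole hermaphrodite L4 larvae of strain OP312 (genotype unc-119(ed3) III; wgIs312, the second being the transgene), collected 48 hours after release from L1 starvation. The transgene expresses LIR-3, a zinc finger protein of the LIN-26 family, fused at its C terminus to GFP-FLAG, and chromatin was sheared by sonication and precipitated through GFP. The data are 1 group of 2 biological replicates from this 1 transgenic line, so a peak is a sum over all tissues of the animal and no genotype or treatment was compared. For comparison, 2 sets of peaks were taken from the same pooled list. The first is the 2643 autosomal intergenic peaks away from starts with a value under 45 (the weaker intergenic peaks), and the second is the 1059 autosomal peaks away from starts with a value of at least 45 inside protein-coding genes.

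Most tRNA genes are read by RNA polymerase III from a promoter that lies inside the gene. It consists of an A box near the start of the transcribed region and a B box further along, both of which are bound by the assembly factor TFIIIC, and the polymerase stops at a short run of T on the coding strand. Copies of tRNA-like sequence that carry both boxes are scattered through eukaryotic genomes as pseudogenes and short interspersed elements, and in yeast and human cells TFIIIC also occupies sites with no annotated gene. The nematode genome is compact, so the sequence between neighbouring genes often holds the end of one and the promoter of the next.

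The sequences below show some of the kinds of region found at the summits, and not in proportion to their numbers. An A box followed by a B box stood at 14 of the 364 and TGCGTCTC at 18, so most regions held neither. Each sequence spans the summit and 50 bases to either side, read from the RefSeq genome of WBcel235 (the same coordinates as ce11), and written 5′ to 3′ on the strand given. The first 7 hold an A box followed by a B box, both in capitals, and are shown because the pair lay in the window of no annotated gene start. The next holds TGCGTCTC in capitals at both of its copies, the next has runs of GAGAGA or its reverse complement in capitals, and the last is the highest of the 364 peaks, which held none of the motifs searched and has no capitals.
chrV:5667453-5667553 (minus strand): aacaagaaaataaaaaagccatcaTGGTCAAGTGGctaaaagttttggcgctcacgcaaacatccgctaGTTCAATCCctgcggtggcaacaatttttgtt
chrII:5353793-5353893 (minus strand): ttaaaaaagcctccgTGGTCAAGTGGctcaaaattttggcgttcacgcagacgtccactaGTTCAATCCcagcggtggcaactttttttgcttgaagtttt
chrV:5592056-5592156 (plus strand): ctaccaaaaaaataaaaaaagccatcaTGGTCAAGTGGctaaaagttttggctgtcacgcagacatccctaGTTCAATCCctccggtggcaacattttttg
chrIII:89293-89393 (minus strand): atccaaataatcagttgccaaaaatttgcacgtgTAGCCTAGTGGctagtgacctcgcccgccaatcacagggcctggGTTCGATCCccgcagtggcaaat
chrV:15454431-15454531 (plus strand): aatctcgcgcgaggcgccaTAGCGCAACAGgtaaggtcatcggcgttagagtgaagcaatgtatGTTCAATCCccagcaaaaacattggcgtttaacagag
chrIII:978985-979085 (minus strand): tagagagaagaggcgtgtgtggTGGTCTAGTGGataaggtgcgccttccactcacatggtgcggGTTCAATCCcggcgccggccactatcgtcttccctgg
chrIII:2031333-2031433 (minus strand): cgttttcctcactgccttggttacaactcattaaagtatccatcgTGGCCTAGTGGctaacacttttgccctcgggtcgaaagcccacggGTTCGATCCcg
chrIV:2219594-2219694 (plus strand): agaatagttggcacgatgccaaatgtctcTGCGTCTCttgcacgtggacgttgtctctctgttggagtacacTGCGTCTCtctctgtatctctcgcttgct
chrIII:8043910-8044010 (plus strand): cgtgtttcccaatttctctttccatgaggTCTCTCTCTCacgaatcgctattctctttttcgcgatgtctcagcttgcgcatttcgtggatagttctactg
chrV:1151449-1151549 (plus strand): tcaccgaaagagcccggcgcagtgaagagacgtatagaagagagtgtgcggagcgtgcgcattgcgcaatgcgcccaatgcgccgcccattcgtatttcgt

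Among these, the windows at V:5667503, II:5353843 and V:5592106 resembled each other. Over 128 aligned bases the window on chromosome II was 85.2% identical to the stronger window on chromosome V and 86.7% identical to the weaker one, and the pair on chromosome V were 83.2% identical over 197 bases. None of them had a match elsewhere in the genome at the limits used (at least 80% identity over at least 50 bases), so each of the 3 copies found in the genome carried a peak with a value of at least 45.

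In signal, most of the 364 peaks were modest. Their deposited signal values, a score whose scale is not stated in the sources used here, ran between 45.03 and 288.5 with quartiles of 48.2, 52.8 and 64.2, and 256 of them (70.3%) were under 60. Only 27 reached 100 and 7 reached 150, whereas the strongest nuclear peak of the pooled list was at 1595. The pooled list is the authors' input for IDR and holds background as well as peaks. Its −log10 q fell from 3.18 at the highest of the 364 to 1.306 at rank 129 by signal. It was 1.297 at rank 131 and 0.892 at rank 221. Since it fell along with signal, the regions from about rank 130 down, most of the 364, missed a q of 0.05. A total of 39 (10.7%) passed the authors' irreproducible discovery rate threshold (IDR, a measure of how well the ranks of peaks match between replicates), against 2.71% of all pooled peaks. The lowest IDR peak had a signal value of 88.9, so every IDR peak was also at 45 or more. Peaks of at least 45 were only 15.9% of the pooled list, so the 2.71% counts many peaks below any IDR peak. Among all pooled peaks of at least 45, the share past IDR was higher than the 10.7% of the 364. Since the IDR list is the top of the pooled list by signal, these differences are a description with no test. The 3 peaks just above the limit had values of 45.12, 45.11 and 45.03, and the 3 intergenic peaks just below it had 44.98, 44.89 and 44.88.

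Peaks were present in both replicate lists at most of the regions. With a summit within 100 bp counted as the same place, 272 of the 364 (74.7%) had a peak in both replicates, 49 had one in replicate 1 alone, 41 in replicate 2 alone and 2 in neither. Of the 39 that passed IDR, 37 had a peak in both and 2 in replicate 2 alone. Of the 2643 weaker intergenic peaks 324 (12.3%) had a peak in both and 628 in neither. Signal values at the 364 regions were 16.6 to 156.3 in replicate 1 (median 30.9, n = 321) and 12.9 to 134.7 in replicate 2 (median 26.4, n = 313). Scores of different lists are not on one scale, so ranks are the better guide. Among the regions with a peak in the replicate, the median stood at percentile 86.8 of the replicate 1 list and at percentile 87.7 of the replicate 2 list. For the weaker intergenic peaks the medians were at percentiles 48.5 (n = 1138) and 52.4 (n = 1201). Places with no replicate peak are left out of these medians, and they were over 50% of the weaker peaks in each replicate. Within the 272, Spearman's rho between replicate signals was 0.21 and Pearson's r of the log2 values was 0.45, a description across peaks that share both libraries. The regions were cut by a pooled value from the same replicates, and 70.3% of the 364 lay under 60. That narrows the range, so these values do not measure how well the replicates match over their whole lists. The pooled list was called on the same reads, so none of these values is an independent check of the members.

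**Figure D1:**
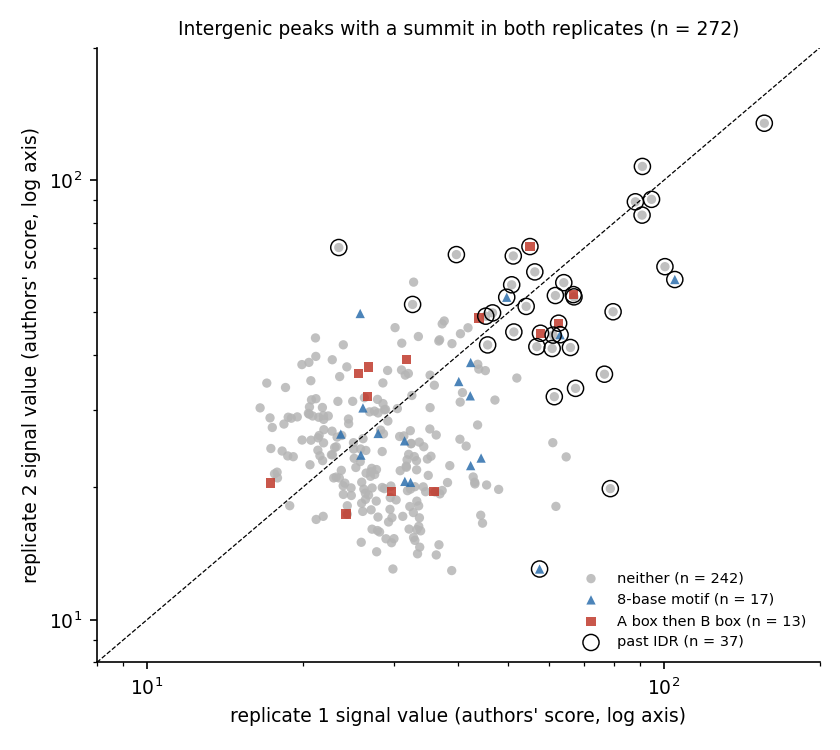
Signal value in replicate 2 (vertical) against replicate 1 (horizontal), both on log axes, for the 272 intergenic peaks with a summit in both replicates; each point is a peak, squares hold an A box followed by a B box, triangles hold TGCGTCTC and rings mark IDR peaks. The highest point has 156.3 in replicate 1 and 134.7 in replicate 2, and most points lie in a broad cloud. All points were cut by the pooled value of the same replicates, so the cloud does not measure replicate agreement over the whole lists.

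The highest of these peaks, at chrV:1151359-1151622, had a pooled signal value of 288.5, with 156.3 in replicate 1 and 134.7 in replicate 2. Its summit lay inside the long noncoding RNA gene linc-128, 593 bp past its annotated start, and 4772 bp upstream of the start of cmd-1, which encodes calmodulin. The second, at chrIII:8043867-8044062, had 199.2 in the pooled list, 90.8 in replicate 1 and 107.4 in replicate 2. It lay between the divergent genes K12H4.6 and K12H4.5, 1085 bp and 527 bp upstream of their starts. The third, at chrIII:4282118-4282277, had 184.3 pooled, 94.6 in replicate 1 and 90.4 in replicate 2, and lay 1953 bp upstream of sup-26, which encodes an RNA-binding protein. The fourth, at chrII:14251388-14251803, had 174.5 pooled, 90.7 in replicate 1 and 83.3 in replicate 2. It lay 761 bp upstream of Y54G11A.2 and 901 bp past the start of hmg-1.1, a high mobility group protein gene that ends within 500 bp of the summit. At all 4 places the replicates ranked the peak within the uppermost part of their lists, with a lowest percentile of 99.3.

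The next places by signal differed in kind. The fifth, at chrIV:2219579-2219683, had 165.4 pooled, with 104.9 in replicate 1 and 59.4 in replicate 2, and held TGCGTCTC at 2 positions. It lay between the divergent genes T04C4.3 and fnip-2, 2788 bp and 3184 bp from their starts. The sixth, at chrIV:3050417-3050832 (155.8 pooled, 100.4 in replicate 1, 63.6 in replicate 2), lay 521 bp upstream of eel-1, which encodes a HECT-type ubiquitin ligase, in soft-masked sequence whose window matched 172 places in the genome. The seventh, at chrIII:931405-931820 (151.1 pooled, 88.0 in replicate 1, 89.3 in replicate 2), was also soft-masked, with 1102 genome matches, and lay 5297 bp from the start of pef-1 and 4474 bp from that of fbxa-55. How reads were placed among such copies is not given in the sources used here, and its effect on these values was not tested.

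Of the 8 remaining places among the 15 strongest, 3 lay within 1 kb upstream of a protein-coding start: chrII:14407900-14408315 (122.2), 504 bp upstream of F26H11.4 with 191 genome matches; chrI:3721611-3722026 (121.0), 662 bp upstream of lin-59, which encodes a histone methyltransferase of the ASH1 kind; and chrIII:9765406-9765821 (120.6), 895 bp upstream of cbp-1, the CBP/p300 acetyltransferase gene. A further 3 lay in no gene and held one or both boxes of the RNA polymerase III promoter: chrI:852012-852427 (129.4) and chrV:5667295-5667710 (127.7) held the pair, and chrV:18712046-18712461 (118.4) held a B box alone. The last 2 lay inside genes that are not protein-coding, chrIII:5211276-5211691 (115.6) in srpr-2.1, with an A box alone, and chrI:5372178-5372593 (112.9) in the pseudogene F55A12.1.

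An A box followed by a B box on the same strand, with 20 to 80 bases between them, was found within 50 bp of the summit at 14 of the 364 regions (3.85%), 7 of 2643 weaker intergenic peaks (0.265%) and 9 of 1059 peaks inside protein-coding genes (0.850%). The odds ratio was 15.04 against the weaker intergenic peaks (95% interval 5.63 to 44.3, adjusted p = 9.02e-08) and 4.66 against the peaks inside genes (1.86 to 12.3, adjusted p = 0.00122), with p from Fisher's exact test, two-sided, and adjusted over 15 tests by Benjamini-Hochberg. The pair was found in none of the 364 windows 300 bp to the left nor in the 364 to the right (0 of 364, upper limit 1.04% by Wilson's interval), and in 0.138% of 206606 windows tiled over all eligible intergenic sequence. It is not particular to these regions. It stood at 240 of 20337 nuclear pooled peaks (1.18%) and at 128 of 384 strong peaks at tRNA gene starts (33.3%). Taken from 1 replicate's list alone, the share of intergenic regions with the pair was smaller: 1.81% of 387 regions without replicate 1, with adjusted p = 0.0309 against the weaker peaks in the exact test, and 1.37% of 366 regions without replicate 2, where the call was lost (adjusted p = 0.136). Against peaks inside genes the call was lost without either replicate, at a minimum of 60, among IDR peaks alone and in windows with no other genome match. The unit of these tests is the peak, and copies of one element are not independent. The motifs were chosen with earlier results of these data known, and the spacing of 20 to 80 bases was set after the files were seen. These p-values are therefore not from a fresh test.

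At the 14 regions the layout of the pair could be set beside that of annotated tRNA genes. The B box began 31 to 43 bases after the end of the A box, with a median of 34, and in the 579 of 612 annotated nuclear tRNA genes that hold the pair the median was 33 bases. A run of 4 T on the same strand began 11 to 24 bases after the B box in 12 of the 14, with a median of 16.5, and none began within 100 bases in the other 2. A run within 30 bases followed the pair in 4 of the 7 weaker intergenic peaks, in 6 of the 9 peaks inside genes and in 209 of the 240 pooled peaks with the pair. The summit lay 5 to 44 bases after the start of the A box, in the A box itself or between the boxes for all but 1 region, where it was at the first base of the B box. The 4 of highest signal passed IDR, and 13 of the 14 had a peak in both replicates.

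**Figure D2:**
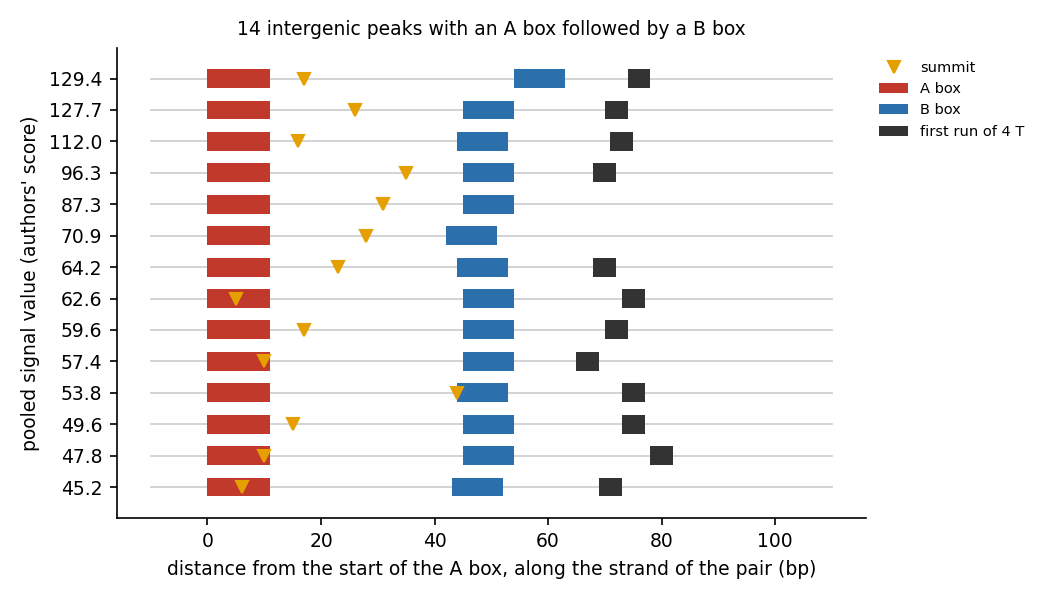
Map of the 14 intergenic peaks with an A box (red) followed by a B box (blue), in order of pooled signal value and aligned at the start of the A box along the strand of the pair; black marks the first run of 4 T after the B box and the triangle marks the summit. The boxes stand 31 to 43 bases apart, and the 2 regions with no black mark have no such run within 100 bases.

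The 14 pairs ran between 45.2 and 129.4 in pooled signal value (median 63.4). That at chrI:852012-852427 had 129.4 pooled, with 55.0 in replicate 1 and 70.6 in replicate 2, lay 1231 bp upstream of zfr-1 and had no other match in the genome. That at chrV:5667295-5667710 (127.7 pooled, 66.8 and 54.9 in replicates 1 and 2) lay 1417 bp upstream of C14C11.7, and its relatives at chrII:5353635-5354050 (96.3 pooled, 57.7 and 44.8) and chrV:5591898-5592313 (64.2 pooled, 25.7 and 36.4) lay 1744 bp past the start of F09E5.7 and 594 bp upstream of vps-37, which encodes an ESCRT-I subunit. That at chrIII:89135-89550 (112.0 pooled, 62.5 and 47.3) lay in a gap of 209 bp between the convergent genes mrpl-40, a mitochondrial ribosomal protein gene, and pat-4, the integrin-linked kinase gene, and 3 of its 4 other genome matches overlapped annotated pseudogenes, with no peak of at least 45 at any of them. Both chrV:15454273-15454688 (87.3) and chrIII:978827-979242 (70.9), which lack the T run, lay inside annotated pseudogenes, T23F1.1 and R06B10.2. That at chrIII:2031175-2031590 (62.6) had no other match and stood 9788 bp from the nearest protein-coding start, that of ckr-2, a neuropeptide receptor gene, and 1135 bp from the tRNA gene M01E10.t1. None of the other genome matches of the 14 overlapped an annotated tRNA gene.

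The boxes taken singly differed less. An A box was found at 38 regions (10.4%), against 6.55% of weaker intergenic peaks (odds ratio 1.66, 1.12 to 2.43, adjusted p = 0.0183) and 9.25% of peaks inside genes (adjusted p = 0.535), both by Fisher's exact test. A B box (GWTCRANNC) was found at 28 (7.69%), against 4.62% of weaker intergenic peaks (odds ratio 1.72, adjusted p = 0.0331) and 4.34% of peaks inside genes (odds ratio 1.83, adjusted p = 0.0331), by the same exact test. Of the regions with either box, 23 had the A box alone, 13 the B box alone and 15 both in some order or strand. These calls rest on choices: without replicate 2 the A box share was 7.10% (adjusted p = 0.277, exact test), without either replicate the B box call was lost, and both were lost when the search reached 100 bp to each side of the summit and in windows with no other genome match, where the shares were 6.99% and 4.80%. Tiled intergenic sequence held an A box in 5.89% and a B box in 3.49% of windows.

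The 8-base motif TGCGTCTC was found on either strand within 50 bp of 18 summits (4.95%), against 46 of 2643 weaker intergenic peaks (1.74%) and 17 of 1059 peaks inside genes (1.61%). The odds ratio was 2.94 (1.58 to 5.23, adjusted p = 0.00183) against the first and 3.19 (1.53 to 6.66, adjusted p = 0.00294) against the second, by Fisher's exact test. The motif was listed with earlier results of these data known, so these p-values are not from a fresh test. Only 2 of the windows 300 bp to the left and 2 of those to the right held it (0.549% each), and it stood in 0.591% of tiled intergenic windows. Against the weaker intergenic peaks the call held in every alternative tried, with shares of 4.13% to 10.3%. Against peaks inside genes it was lost among IDR peaks alone (10.3% against 3.70%, adjusted p = 0.874, exact test). No region held both this motif and the pair of boxes. Its 18 regions had pooled values of 47.3 to 165.4 (median 67.9), 17 had a peak in both replicates, 4 passed IDR and 17 had no other genome match, whereas 3 of the 14 regions with the box pair had none. The motif centre lay a median of 20 bp from the summit, a distance limited in advance by the 50 bp searched. In 50-bp bins the motif stood at 2.75% of the 364 on either side of the summit. It stood at 3.30% in the bin 50 to 100 bp to the left.

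After the peak at chrIV:2219579-2219683, the strongest regions with this motif were chrIII:7155707-7156122 (112.4 pooled, 57.4 in replicate 1 and 13.0 in replicate 2), 2118 bp upstream of ogt-1, the O-GlcNAc transferase gene, chrI:16822-17237 (107.9 pooled, 62.9 and 44.5), 5535 bp from the start of the neuropeptide gene nlp-40, and chrIII:6606116-6606531 (101.04 pooled, 49.6 and 54.2), 1782 bp past the start of mdh-2, a malate dehydrogenase gene. These 3 were named after their values were seen. The replicates were close at the last of them and far apart at the first.

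**Figure D3:**
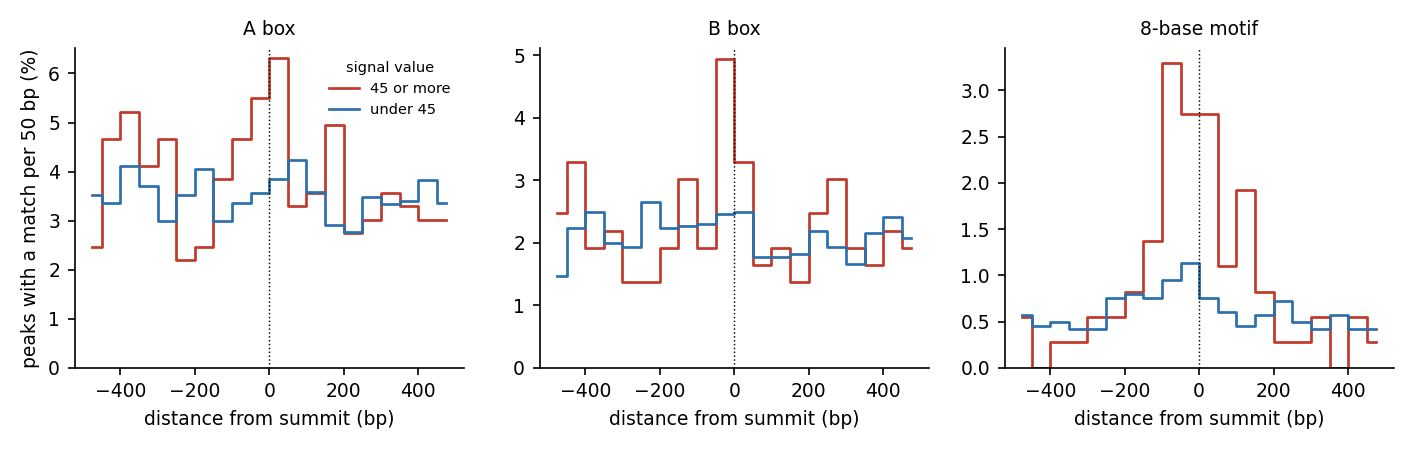
Share of peaks with a motif match in each 50-bp bin (vertical, percent) by distance from the summit (horizontal, bp) for the 364 intergenic peaks of 45 or more and the 2643 under 45, for the A box, the B box and the 8-base motif TGCGTCTC. The B box reached 4.95% in the bin just left of the summit in the stronger peaks and 2.46% in the weaker ones, and the 8-base motif reached 3.30% at 50 to 100 bp left of the summit, against 0.946%.

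GAGAGA or its reverse complement, picked after all 6-base counts were seen and so given with no test, was found at 80 regions (21.98%), against 9.34% and 8.24% of the windows 300 bp to the left and right, 8.82% of the weaker intergenic peaks and 10.8% of the peaks inside genes. It stood at 5 of the 15 strongest regions and at 11 of the 39 that passed IDR (28.2%). The hexamer AGACGC was found at 38 regions (10.4%), against 1.65% and 1.10% of the flanking windows and 3.52% of the weaker intergenic peaks. It lies wholly within the reverse complement of TGCGTCTC, so its count includes regions with that motif. GAGAGA also stood at 12 of the 18 regions with TGCGTCTC, so these motif counts are not separate results. The motif TTSSCGC, bound by E2F factors, was found at 26 regions (7.14%), against 4.65% of weaker intergenic peaks (odds ratio 1.58, 0.975 to 2.46, adjusted p = 0.0780) and 4.82% of peaks inside genes (adjusted p = 0.145), neither past the threshold by Fisher's exact test. At a minimum signal of 60 its share was 10.2% and passed against the weaker peaks (adjusted p = 0.0379, exact test). Base composition moved with these counts: the median GC content of the windows was 45.5% in the 364 regions, 36.6% in the weaker intergenic peaks and 46.5% in the peaks inside genes, and its part in the differences from the weaker peaks was not tested.

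**Figure D4:**
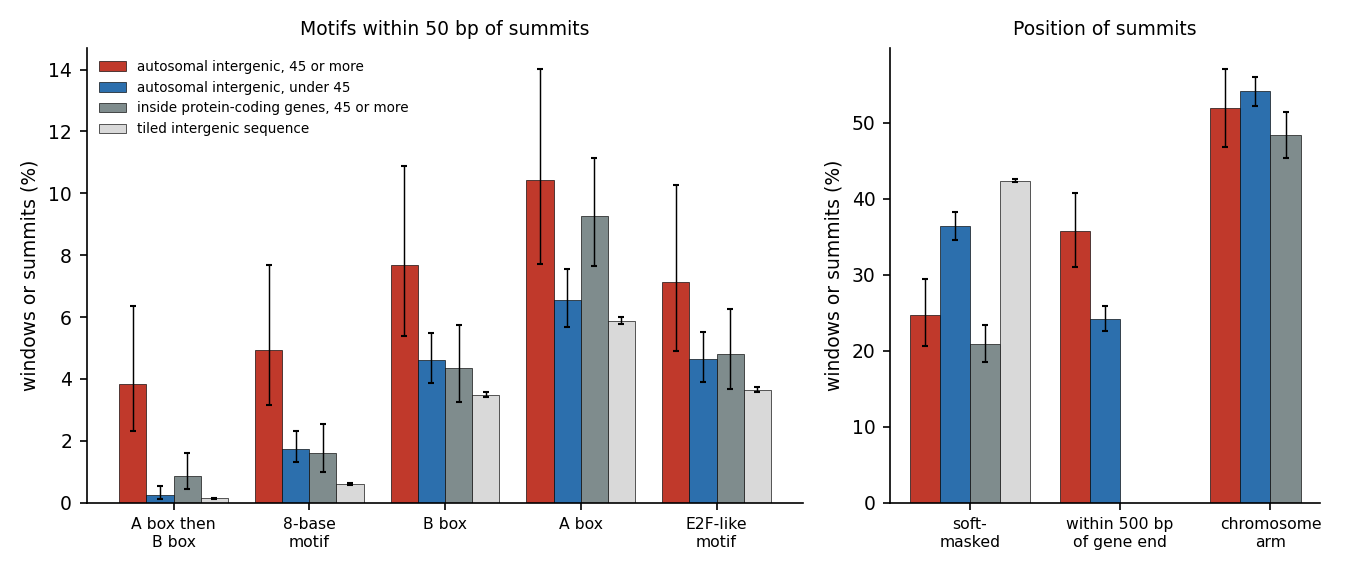
Left, share of windows (percent) holding each motif within 50 bp of the summit; right, share of summits in soft-masked sequence, within 500 bp downstream of a protein-coding gene end and in chromosome arms. Bars are the 364 intergenic peaks of 45 or more, the 2643 under 45, the 1059 inside protein-coding genes and tiled intergenic windows (the last where measured), and lines are 95% Wilson intervals. For the box pair (3.85% against 0.265%) and the 8-base motif (4.95% against 1.74%) the intervals of the stronger and weaker intergenic peaks do not overlap.

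By position, the regions lay near the ends of genes more often than the weaker intergenic peaks did. A total of 130 (35.7%) lay within 500 bp downstream of the end of a protein-coding gene, against 639 of the 2643 weaker peaks (24.2%), an odds ratio of 1.74 (1.37 to 2.21) and, in Fisher's exact test, an adjusted p = 3.64e-05. In windows with no other genome match the share was 29.7%, against 22.5%, and the call was lost (adjusted p = 0.0585, exact test). Of the 130, 93 lay between genes in tandem and 37 between convergent genes. They were 41.3% of the 225 regions between tandem genes and 77.1% of the 48 between convergent genes, against 26.8% and 60.9% of the weaker peaks in the same layouts. The intergenic gaps that held the regions were also shorter, with a median of 4521 bp against 5524 bp, and the part of gap length in the gene-end share was not tested.

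Distances to gene starts are given as a description with no test. The median distance to the nearest protein-coding start was 1938 bp, against 2059 bp for the weaker intergenic peaks. The 81 regions (22.3%) that lay 500 to 1000 bp upstream of that start, just beyond the window of the rule, compared with 18.7% of the weaker peaks, and 28 (7.69%) lay over 5 kb away, against 14.7%. Divergent pairs of genes flanked 91 of them (25%), against 28.0% of the weaker peaks. The nearest start of any gene was protein-coding for 252 regions, of a noncoding RNA gene for 60, of a pseudogene for 30, of a snoRNA gene for 7, of a lincRNA gene for 7 and of a tRNA gene for 4. None of the 364 summits lay in the start window of a RefSeq gene. Only 5 (1.37%), all on chromosome IV, lay in the start window of a piRNA gene, against 6.47% of the weaker peaks; these genes cluster on that chromosome and were ignored by the rule.

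**Figure D5:**
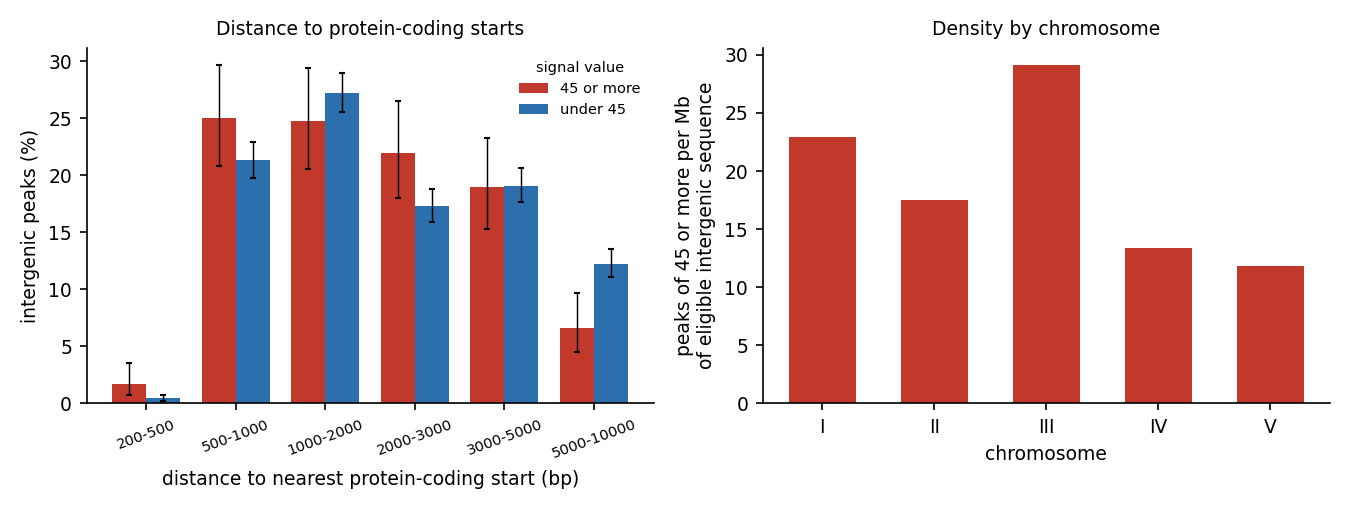
Left, share of intergenic peaks (percent, with 95% Wilson intervals) by distance to the nearest protein-coding start, for the 364 of 45 or more and the 2643 under 45, leaving out peaks more than 10 kb away; right, number of peaks of 45 or more per Mb of eligible intergenic sequence on each autosome. The bin of 500 to 1000 bp holds 25% of the stronger and 21.3% of the weaker peaks, and chromosome III has the highest density at 29.2 per Mb.

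Counted over the sequence in which a summit could have met the rule, 20.9 Mb in all, there were 17.4 regions per Mb. Chromosome III had 29.2 per Mb (89 regions, 11 past IDR), I had 23.0 (71 regions, 10 past IDR), II had 17.5 (68 regions, 5 past IDR), IV had 13.4 (71 regions, 4 past IDR) and V had 11.8 (65 regions, 9 past IDR). The weaker intergenic peaks, at 126.7 per Mb over all autosomes, were also densest on III (164.2) and sparsest on V (100.9). Chromosome arms, meaning the 25% of the length at either end, held 51.9% of the regions, against 54.1% of the weaker peaks (adjusted p = 0.464) and 48.3% of peaks inside genes (adjusted p = 0.287), with 53.4% of the eligible sequence lying there; neither difference passed Fisher's exact test. The regions were mostly solitary: 30 of them formed 15 pairs within 1 kb, which leaves 349 separate places.

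The summit lay in soft-masked sequence, as flagged in the RefSeq genome, in 90 of the 364 (24.7%), against 36.4% of the weaker intergenic peaks (odds ratio 0.575, 0.442 to 0.742, adjusted p = 5.10e-05) and 20.9% of peaks inside genes (adjusted p = 0.177), by Fisher's exact test. Without replicate 1 the share was 29.5% and the call against the weaker peaks was lost (adjusted p = 0.121, exact test), while the difference from peaks inside genes (19.6%) passed (adjusted p = 0.000648). Among IDR peaks alone the share was 25.6%, and it did not pass against the weaker peaks (adjusted p = 0.517, exact test). Windows reaching 100 bases to either side of the summit that had no other match in the genome made up 229 of the 364 (62.9%), and 64.2% of the weaker peaks. Windows with 10 or more matches numbered 77 (21.2%), against 20.2% of the weaker peaks and 10.4% of the peaks inside genes, and the most repeated had 3465. Of the 90 soft-masked regions, 36 had 10 or more matches, so masking and repetition in the genome are different measures here.

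Some of the regions lay in, or resembled, noncoding genes. A gene other than a protein-coding one held 28 summits: a pseudogene for 20, a lincRNA gene for 5 and an unclassified noncoding RNA gene for 4, with 1 summit in genes of more than 1 of these kinds. In 33 regions the window matched an annotated small RNA gene elsewhere, an unclassified noncoding RNA gene in 31, a miRNA gene in 1 and a tRNA gene in 1. The peak at chrIII:5211276-5211691 (115.6 pooled, 56.2 in replicate 1 and 61.8 in replicate 2) lay in srpr-2.1. Its window was 98.5% identical over 135 bases to srpr-2.2, whose own peak had 143.1. Ensembl gives both the general type of noncoding RNA gene. With near-identical copies, reads from one can be counted at the other. The peak at chrV:7548501-7548916 (88.9 pooled, 45.6 and 42.2), 1130 bp upstream of the ferritin gene ftn-1, was 95.2% identical over 167 bases to the noncoding RNA gene K02E11.15. The peak of that gene had 42.3, a lower value. The window at ftn-1 had 21 genome matches, so it is 1 of many copies. Another of the regions, at chrV:15767412-15767827 (62.2 pooled), matched the same gene at 96.35% identity. That at chrIV:3050620-3051035 (77.5 pooled, 60.9 and 25.3), next to the eel-1 peak above and with 133 genome matches, matched the miRNA gene cel-mir-4932.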

How the data were processed

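LIR-3 was profiled by ChIP-seq in 2 replicates. The pooled and single-replicate relaxed peak lists and the IDR list on ce11 were used as the authors deposited them. Each peak carries a signal value, a score whose scale is not stated and which is not comparable between lists, and a −log10 of the q-value, also deposited by the authors, which was not tested. Aligner, peak caller and read depth are not stated; a control alignment entered the peak calls, per the submitters' file listing, and no mock immunoprecipitation is analysed here. Intervals and tests therefore cover sampling of peaks only.

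Gene positions came from Ensembl release 115 (WBcel235) and sequence from RefSeq. Motifs were searched on both strands within 50 bp of the summit for the A box, the B box, TGCGTCTC and an E2F-type site, in the letters given beside each result, the A box by its usual consensus and by name only (W stands for A or T, R for a purine, S for C or G, N for any base). Windows of 100 bases to either side of the summit were matched to the genome with blastn 2.17.0. Differences in share were tested with Fisher's exact test, two-sided (scipy 1.17.1), and adjusted over 15 tests by Benjamini-Hochberg; the peak is the unit and neighbouring peaks are not independent. Motif search, region rule and test were tested on simulated data. The members and motif lists were chosen with earlier results of these data known, and the spacing allowed between boxes was set after the files were seen. Named regions are the 15 of highest signal, 3 on each side of the limit, up to 8 with the box pair and up to 5 matching a small RNA gene; others are said to be chosen later. Alternatives were a minimum of 60, IDR peaks alone, a 1000 bp start window, RefSeq starts, each replicate alone, wider motif windows, other arm and gene-end limits and, chosen after seeing the data, windows with no other genome match and 1 peak per 1 kb. Lists on ce10 were not used.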

Additional observations from a re-analysis of the deposited data

How the results depend on the processing

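Of the shares recomputed, 97 kept their direction and their side of the threshold, 24 kept the direction but no longer passed, 4 newly passed and 8 reversed. The regions numbered 108 at a minimum of 60, 39 among IDR peaks and 229 in windows with no other genome match, an alternative chosen after seeing the data, as was 1 peak per 1 kb, which changed no call. Against the weaker intergenic peaks, the A box share no longer passed with motifs within 100 bp (15.7%) and in windows with no other match (6.99%), and the B box share with a 1000 bp start window (8.02%), within 100 bp (10.7%) and in windows with no other match (4.80%). In those windows the gene-end share (29.7%) missed the threshold and the arm share (44.1%) reversed against the weaker peaks. Soft-masking among IDR peaks was 25.6% and missed it, and the E2F-type motif at a minimum of 60 (10.2%) passed it. With 1 replicate's list alone, the regions numbered 366 without replicate 2 and 387 without replicate 1. In that order, shares were 7.10% and 10.3% (A box), 5.74% and 6.20% (B box), 1.37% and 1.81% (box pair), 4.64% and 4.13% (TGCGTCTC), 7.10% and 7.49% (E2F-type motif, past the threshold against the weaker peaks at 7.49% and against peaks inside genes at 7.10%), 25.7% and 29.5% (soft-masked), 50.3% and 49.6% (arms) and 35.8% and 35.1% (gene ends). Against peaks inside genes, directions reversed among IDR peaks for the A box (20.5%), the E2F-type motif (10.3%) and arms (48.7%), for the A box within 100 bp (15.7%), without replicate 2 (7.10%) and in windows with no other match (6.99%), and there for arms (44.1%). The cause was not tested. Depth is unknown, no untagged sample was analysed, and 1 line cannot separate LIR-3 from effects of the tag.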
